A study of Homo sapiens with 48 samples.

Results

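The 8 genes followed here encode receptors that steer B cells through lymphoid tissue: CXCR4, CXCR5, CCR6, CCR7, S1PR1, S1PR2, GPR183 and P2RY8. They were taken as named members of this receptor group, with no cut on a measured value but with earlier results of these data known, and all 8 were found among the 25066 genes of the count table; 7 of them had enough reads to be tested, and CCR6 did not. RNA had been sequenced from TMD8 and HBL1, human cell lines grown from diffuse large B cell lymphoma of the activated B cell-like kind, in which signalling from the B cell receptor is known to sustain growth. Every library, vehicle included, came from cells described as Cas9 engineered, so each line is represented only by that derivative. Cells were harvested after 3, 6 or 24 h in vehicle (DMSO), in NGI-1 at 5 µM, in acalabrutinib at 50 nM or in copanlisib at 20 nM, with 2 replicates for each of the 24 combinations of line, compound and time, 48 libraries in all. NGI-1 blocks oligosaccharyltransferase, the endoplasmic reticulum enzyme that attaches N-glycans to proteins, acalabrutinib blocks the kinase BTK downstream of the B cell receptor, and copanlisib blocks phosphatidylinositol 3-kinase (PI3K). The labels do not say that the 2 replicates were separate cultures, so every p-value is set against library-to-library spread alone, which may be technical.

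All 8 receptors couple to G proteins, and most of them turn a gradient of a ligand into directed movement. CXCR4 follows CXCL12 and CXCR5 follows CXCL13 into follicles and germinal centres, CCR7 follows CCL19 and CCL21 towards the T cell zone, and CCR6 follows CCL20. GPR183 (also called EBI2) follows oxysterols to the follicle's outer edge, and S1PR1 follows sphingosine 1-phosphate out of the tissue, whereas S1PR2 and P2RY8 signal through G alpha 13 to hold germinal centre B cells in place. In B cells, FOXO factors, which PI3K signalling keeps out of the nucleus, and the factor KLF2 are known regulators of several of these genes.

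The promoters of CXCR4, CXCR5 and S1PR2 are printed because the responses of these genes, described below, went in opposite directions. Each run holds 250 bases before and 50 bases after a RefSeq transcription start on GRCh38.p14, 5′ to 3′ on the gene's own strand, with capitals marking CCACCC, the core of the KLF motif, or its reverse complement.
CXCR4, chr2:136118100-136118399, minus strand: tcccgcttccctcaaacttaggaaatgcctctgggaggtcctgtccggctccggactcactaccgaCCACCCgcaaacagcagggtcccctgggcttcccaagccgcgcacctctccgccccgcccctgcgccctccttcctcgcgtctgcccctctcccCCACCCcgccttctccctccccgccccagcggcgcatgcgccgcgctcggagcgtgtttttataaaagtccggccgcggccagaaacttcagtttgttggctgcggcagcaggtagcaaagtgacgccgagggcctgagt
CXCR5, chr11:118893142-118893441, plus strand: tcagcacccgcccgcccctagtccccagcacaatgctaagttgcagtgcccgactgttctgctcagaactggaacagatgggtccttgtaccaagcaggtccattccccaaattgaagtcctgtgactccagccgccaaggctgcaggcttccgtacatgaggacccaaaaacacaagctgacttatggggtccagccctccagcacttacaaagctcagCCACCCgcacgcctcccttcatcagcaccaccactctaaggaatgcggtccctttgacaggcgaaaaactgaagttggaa
S1PR2, chr19:10231282-10231581, minus strand: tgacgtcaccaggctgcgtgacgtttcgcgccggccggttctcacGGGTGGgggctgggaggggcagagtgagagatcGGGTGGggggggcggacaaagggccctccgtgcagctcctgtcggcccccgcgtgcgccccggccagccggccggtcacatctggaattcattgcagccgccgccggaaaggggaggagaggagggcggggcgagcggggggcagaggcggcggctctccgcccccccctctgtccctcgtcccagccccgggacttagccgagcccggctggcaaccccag
The RefSeq table held 12 distinct promoters for 7 of the 8 genes, and CCR7 had no entry. CCACCC, searched on both strands, was found in 9 of the 12, against 34.3% of all 35093 promoters of that length. The 9 belonged to CXCR4 (3 of 3), CCR6 (2 of 3), CXCR5, S1PR1 and S1PR2 (1 of 1 each) and P2RY8 (1 of 2), and the GPR183 promoter had none. The 12 are not independent, as CXCR4 and CCR6 gave 3 each and windows of CXCR4 overlap, and binding of a KLF factor was not tested. The FOXO motif GTAAACA was in 0 of the 12 (3.42% of all promoters) and the NF-kB motif GGGANNTTC in 0 of the 12 (4.18% of all promoters), which says only that these letters are not in these windows.

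Libraries held 7165377 to 11999050 reads, and 13881 genes entered the test. The markers of B cells were high throughout, with 8 of 8 detected and a summed level of 4940 to 8040 CPM (reads scaled to a library of 1e6) in TMD8 and 3720 to 6330 CPM in HBL1. T and NK cell markers summed to 0.661 to 6.67 CPM in TMD8 and 0.0963 to 0.841 CPM in HBL1, with TRAT1 at 0 reads in all 48 libraries and CD3D at 0 reads in TMD8. Most of their TMD8 reads were from CD4 (361 reads, median 1.29 CPM) and CD8A (156 reads, 0.61 CPM), and CD8A held 58 reads in HBL1. Myeloid markers summed to 40.4 to 67 CPM in TMD8, nearly all of it CD68, and 3.06 to 5.8 CPM in HBL1, with S100A9 at 0 reads in both lines. Stromal and epithelial markers summed to 83.6 to 177 CPM in TMD8, mostly CDH1, and 20.9 to 44.8 CPM in HBL1. The HBL1 sum was mostly PECAM1, EPCAM and COL1A2, with medians of 11.4, 9.87 and 6.39 CPM. Because RNA was taken from whole cultures, fewer cells making a receptor and less RNA per cell cannot be told apart in any value below.

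Against DMSO, the receptors moved in different directions. CXCR4 rose with every compound in both lines, and its RNA was 2.16-fold higher after 24 h of NGI-1 in TMD8 and in HBL1. CXCR5 fell in TMD8 with both kinase inhibitors, by up to 1.99-fold. In HBL1 the main edgeR fit called no change in it, whereas DESeq2 called 1 with copanlisib, and so did some other edgeR settings. S1PR2 rose in TMD8 with all 3 compounds at 24 h and fell in HBL1 with NGI-1, there on only 10 and 8 reads against 27 and 15. GPR183 fell at 3 or 6 h in TMD8, while S1PR1 and, in HBL1, P2RY8 rose late.

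The 3 compounds share their DMSO libraries within each line and time, so their results are not independent of each other. Over 7 receptors and 18 comparisons, 34 of 126 results were higher and 14 lower at an adjusted p under 0.05 in edgeR's quasi-likelihood test, with Benjamini-Hochberg adjustment over all genes tested. At 3 h in TMD8, 2 of 7 receptors were called with NGI-1 (0.735% of all genes tested were), 1 with acalabrutinib (0.339%) and 3 with copanlisib (1.71%). At 3 h in HBL1, 0 of 7 were called with NGI-1 (0.353%), 0 with acalabrutinib (0.223%) and 1 with copanlisib (2.22%). After 6 h in TMD8, the called receptors numbered 3 with NGI-1 (4.25%), 3 with acalabrutinib (4.5%) and 6 with copanlisib (14.4%). After 6 h in HBL1 they numbered 0 with NGI-1 (1.15%), 1 with acalabrutinib (5.61%) and 2 with copanlisib (9.54%). In the 3 comparisons with a count of 0, namely NGI-1 at 3 h, NGI-1 at 6 h and acalabrutinib at 3 h in HBL1, edgeR gave 1, 1 and 0 receptors at an unadjusted p under 0.05, and DESeq2 called 0 in each. By 24 h in TMD8, 4 were called with NGI-1 (30.4%), 4 with acalabrutinib (30.8%) and 5 with copanlisib (31.6%). By 24 h in HBL1, 5 were called with NGI-1 (19.2%), 4 with acalabrutinib (18.9%) and 4 with copanlisib (30.2%). With 7 receptors, each count is small beside a background that reaches about 1 gene in 3 at 24 h.

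**Figure D1:**
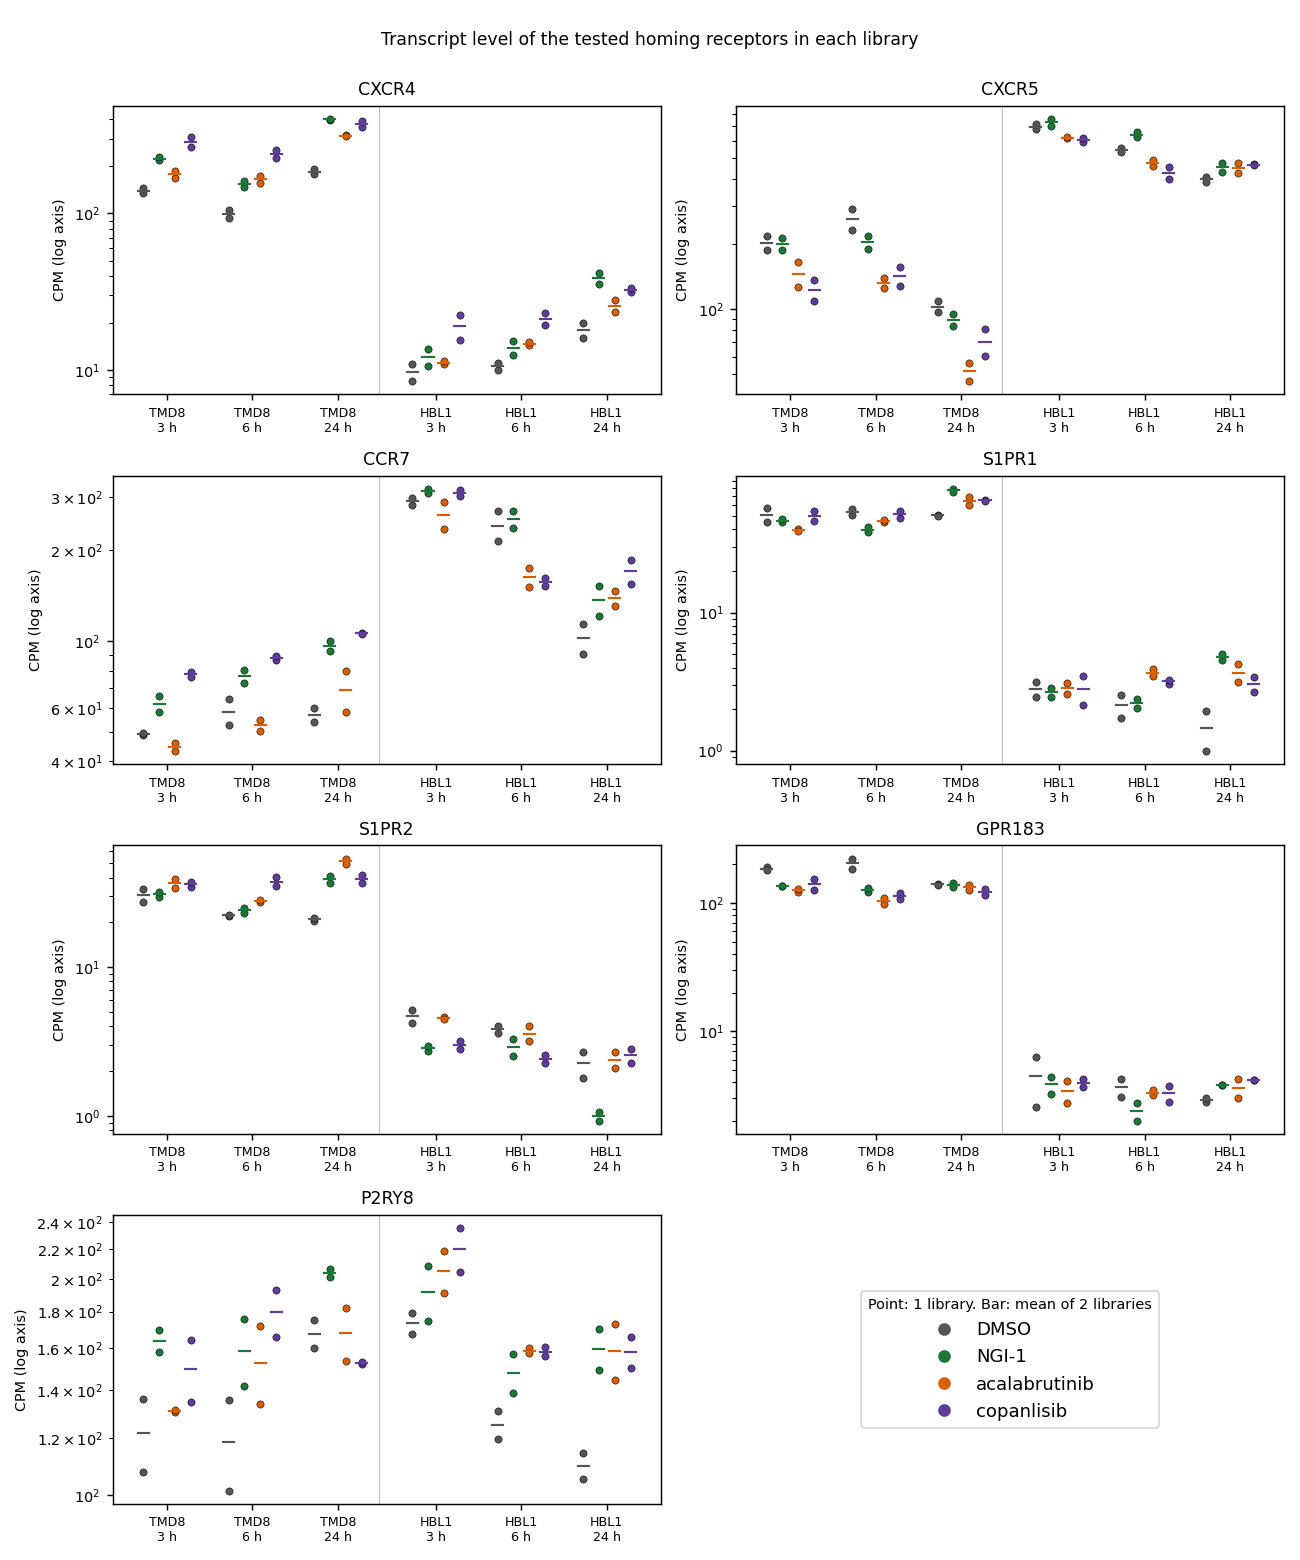
Level of each of the 7 tested receptors in every library, in CPM on a log axis, by line, compound and time; each point is 1 library, and each bar is the mean of the 2 libraries of a group. CXCR4, S1PR1, S1PR2 and GPR183 sit higher in TMD8, CXCR5 and CCR7 sit higher in HBL1, and P2RY8 lies in the same range in both lines.

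The lines started from different levels. In DMSO, 7 of 7 receptors were called between TMD8 and HBL1 at 3 h (65.1% of all genes were), 6 at 6 h (65.6%) and 7 at 24 h (65.8%). GPR183 spanned 138 to 223 CPM in the 6 TMD8 vehicle libraries and 2.55 to 6.30 CPM in those of HBL1, and its log2 difference was 5.39, 5.79 and 5.59 at 3, 6 and 24 h. S1PR1 spanned 45.0 to 57.5 CPM against 0.996 to 3.15 CPM, with log2 differences of 4.18, 4.65 and 5.14. These are ranges that do not meet, and in HBL1 they rest on few reads: S1PR1 had 10 to 43 and GPR183 had 17 to 60 in any HBL1 library. CXCR4 was higher in TMD8 by 3.85, 3.23 and 3.38 on the log2 scale, and S1PR2 by 2.70, 2.54 and 3.19. The opposite held for CXCR5 (log2 difference -1.79, -1.06 and -1.96) and CCR7 (-2.56, -2.05 and -0.84), both higher in HBL1. P2RY8 changed sides, with a log2 difference of -0.51 at 3 h (adjusted p = 0.00197), -0.08 at 6 h (0.636) and 0.61 at 24 h (0.000328); without replicate 1 of TMD8 DMSO at 3 h the first of these was -0.35 (adjusted p = 0.0733). CCR6 had 1 read in all 24 TMD8 libraries together, with 23 of them at 0, and 1 to 9 reads in each HBL1 library (75 in all, 0.0990 to 0.970 CPM), too few to test between groups.

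CXCR4 (gene identifier 7852) was the receptor called most often, higher in 13 of its 18 comparisons with DMSO. In TMD8 at 24 h the DMSO libraries stood at 179 and 191 CPM, against 398 and 403 CPM with NGI-1, 316 and 312 CPM with acalabrutinib and 357 and 389 CPM with copanlisib. Every treated library was above both vehicle libraries. The log2 change was 1.11 ± 0.10 (SE; adjusted p = 1.77e-11) with NGI-1, 0.76 ± 0.10 (1.15e-07) with acalabrutinib and 1.01 ± 0.10 (1.84e-10) with copanlisib.

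The response of CXCR4 was early with copanlisib. At 3 h in TMD8 the DMSO libraries held 135 and 145 CPM, those with NGI-1 218 and 231 CPM, those with acalabrutinib 169 and 186 CPM and those with copanlisib 265 and 307 CPM. The ranges did not meet for any compound, but only NGI-1 (log2 change 0.68 ± 0.11, adjusted p = 3.27e-05) and copanlisib (1.03 ± 0.10, 2.66e-09) passed edgeR's test, and acalabrutinib (0.34 ± 0.11, 0.338) did not. At 6 h DMSO held 93.7 and 105 CPM, and levels were 148 and 160 CPM with NGI-1, 157 and 174 CPM with acalabrutinib and 225 and 253 CPM with copanlisib. Copanlisib again gave the highest libraries, and all 3 compounds passed (0.64 ± 0.11, 0.74 ± 0.11 and 1.27 ± 0.11, adjusted p = 6.83e-05, 3.51e-06 and 2.58e-12).

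In HBL1, where CXCR4 was less abundant, the called changes had the same direction. The DMSO libraries held 8.48 and 10.9 CPM at 3 h, 10.0 and 11.0 CPM at 6 h and 16.0 and 19.8 CPM at 24 h. With copanlisib they were 15.5 and 22.4 CPM, 19.4 and 23.2 CPM, and 31.6 and 33.3 CPM, above vehicle at each time. The copanlisib changes were 0.96 ± 0.17 (adjusted p = 0.000217), 1.02 ± 0.16 (1.03e-05) and 0.86 ± 0.14 (4.9e-06). NGI-1 and acalabrutinib passed at 24 h only: NGI-1 with 35.4 and 41.8 CPM (1.11 ± 0.14, adjusted p = 7.58e-08) and acalabrutinib with 23.6 and 28.0 CPM (0.53 ± 0.14, 0.00608). Without replicate 1 of HBL1 DMSO at 24 h, CXCR4's acalabrutinib change there was 0.38 (adjusted p = 0.183), and without acalabrutinib replicate 2 it was 0.40 (0.136). Without copanlisib replicate 2 at 3 h, the copanlisib change of CXCR4 was 0.66 (adjusted p = 0.0685).

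CXCR5 (gene identifier 643) fell in TMD8 with both kinase inhibitors, in 5 of 18 comparisons in the main edgeR fit, which called it higher in none. At 6 h the TMD8 DMSO libraries held 290 and 232 CPM, those with acalabrutinib 139 and 124 CPM, those with copanlisib 156 and 127 CPM and those with NGI-1 217 and 189 CPM. Both kinase inhibitors lay well below vehicle, and NGI-1 lay between. The log2 change was -0.99 ± 0.13 (adjusted p = 3.5e-06) with acalabrutinib, -0.89 ± 0.13 (8.17e-06) with copanlisib and -0.37 with NGI-1, which did not pass (0.113) but was called by DESeq2 (-0.38, 0.0481).

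By 24 h CXCR5 had dropped in vehicle as well, to 108 and 96.2 CPM in TMD8. Acalabrutinib libraries were lower still, at 56.2 and 46.3 CPM (log2 change -0.99 ± 0.14, adjusted p = 1.49e-06). Copanlisib gave 80.3 and 60.4 CPM (-0.53 ± 0.14, 0.0033), and NGI-1, at 94.6 and 82.8 CPM, gave a change of -0.20 that did not pass (0.288). At 3 h copanlisib had already lowered CXCR5, to 135 and 108 CPM from 217 and 187 CPM (-0.73 ± 0.13, 0.000762). Acalabrutinib at 3 h, with 164 and 126 CPM, gave -0.48 (adjusted p = 0.203), which DESeq2 called (-0.47, 0.0491). In HBL1, 0 of 9 CXCR5 comparisons passed in the main edgeR fit, 1 was at an unadjusted p under 0.05 and 1 was called by DESeq2. The changes ran from -0.35 to 0.24. The CXCR5 change called by DESeq2 was that with copanlisib at 6 h (-0.36, adjusted p = 0.0376, against 0.0712 in edgeR). It was also called by edgeR in a fit of HBL1 alone (-0.37, 0.0017) and with no filter on low counts (-0.35, 0.00281). At 24 h the same alternatives called CXCR5 higher with copanlisib in HBL1 (0.23, 0.0189, and 0.27, 0.0168). Without copanlisib replicate 2, CXCR5's copanlisib change in TMD8 was -0.58 at 3 h (adjusted p = 0.0621) and -0.35 at 24 h (0.127); without DMSO replicate 1 it was -0.62 (0.0512) and -0.45 (0.0538).

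The exons of CXCR5 share 3925 bases with those of BCL9L on the opposite strand in the GENCODE v29 annotation, and the use of strand in the authors' counting is not given in the sources used here, so reads of the 2 genes may be mixed. The log2 change of BCL9L in TMD8 was 0.22 (adjusted p = 0.525) with acalabrutinib at 6 h, 0.48 (0.00982) with acalabrutinib at 24 h and 0.06 (0.865) with copanlisib at 6 h, so no fall was called for it there. S1PR2 shares 83 bases with DNMT1 on the same strand and CCR6 shares 3008 with Z94721.2, and P2RY8 has identical copies on X and Y, whose reads a counter may split or drop.

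CCR7 (gene identifier 1236) rose with copanlisib in TMD8 at every time. Its TMD8 DMSO libraries held 49.1 and 49.6 CPM at 3 h, 64.2 and 52.6 CPM at 6 h and 54.2 and 60.1 CPM at 24 h. With copanlisib they held 79.4 and 76.4 CPM, 86.9 and 89.3 CPM, and 107 and 106 CPM. All 6 treated libraries were above all 6 vehicle libraries. The changes were 0.66 ± 0.14 (adjusted p = 0.0057), 0.59 ± 0.14 (0.00237) and 0.89 ± 0.14 (3.82e-06). NGI-1 raised CCR7 in TMD8 at 24 h, to 100 and 92.6 CPM (0.75 ± 0.14, 5.36e-05), and acalabrutinib, at 79.7 and 58.3 CPM, gave 0.27 (0.139).

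CCR7 went both ways in HBL1. At 6 h, against 270 and 214 CPM in DMSO, it fell to 174 and 152 CPM with acalabrutinib (-0.57 ± 0.13, adjusted p = 0.00431) and to 163 and 153 CPM with copanlisib (-0.62 ± 0.13, 0.000952), while NGI-1 left 270 and 238 CPM. At 24 h, when vehicle had dropped to 114 and 90.8 CPM, it was higher with all 3: 152 and 122 CPM with NGI-1 (0.42 ± 0.13, 0.0207), 147 and 131 CPM with acalabrutinib (0.43 ± 0.13, 0.016) and 186 and 155 CPM with copanlisib (0.73 ± 0.13, 3.94e-05). The treated libraries at 24 h were thus above their own vehicle and below every HBL1 vehicle library at 3 and 6 h. Without DMSO replicate 2 at 24 h, CCR7 gave 0.26 (adjusted p = 0.259) with NGI-1 and 0.28 (0.227) with acalabrutinib, and without the compound's own replicate 1 it gave 0.24 (0.328) and 0.35 (0.16). Without DMSO replicate 1 at 6 h it gave -0.39 (0.186) with acalabrutinib and -0.44 (0.068) with copanlisib, and without acalabrutinib replicate 2 it gave -0.47 (0.118). Without DMSO replicate 2 at 6 h in TMD8, CCR7 gave 0.46 (0.0726) with copanlisib, and at 3 h, where 3 of 4 omissions lost the call, its change stayed between 0.63 and 0.69.

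**Figure D2:**
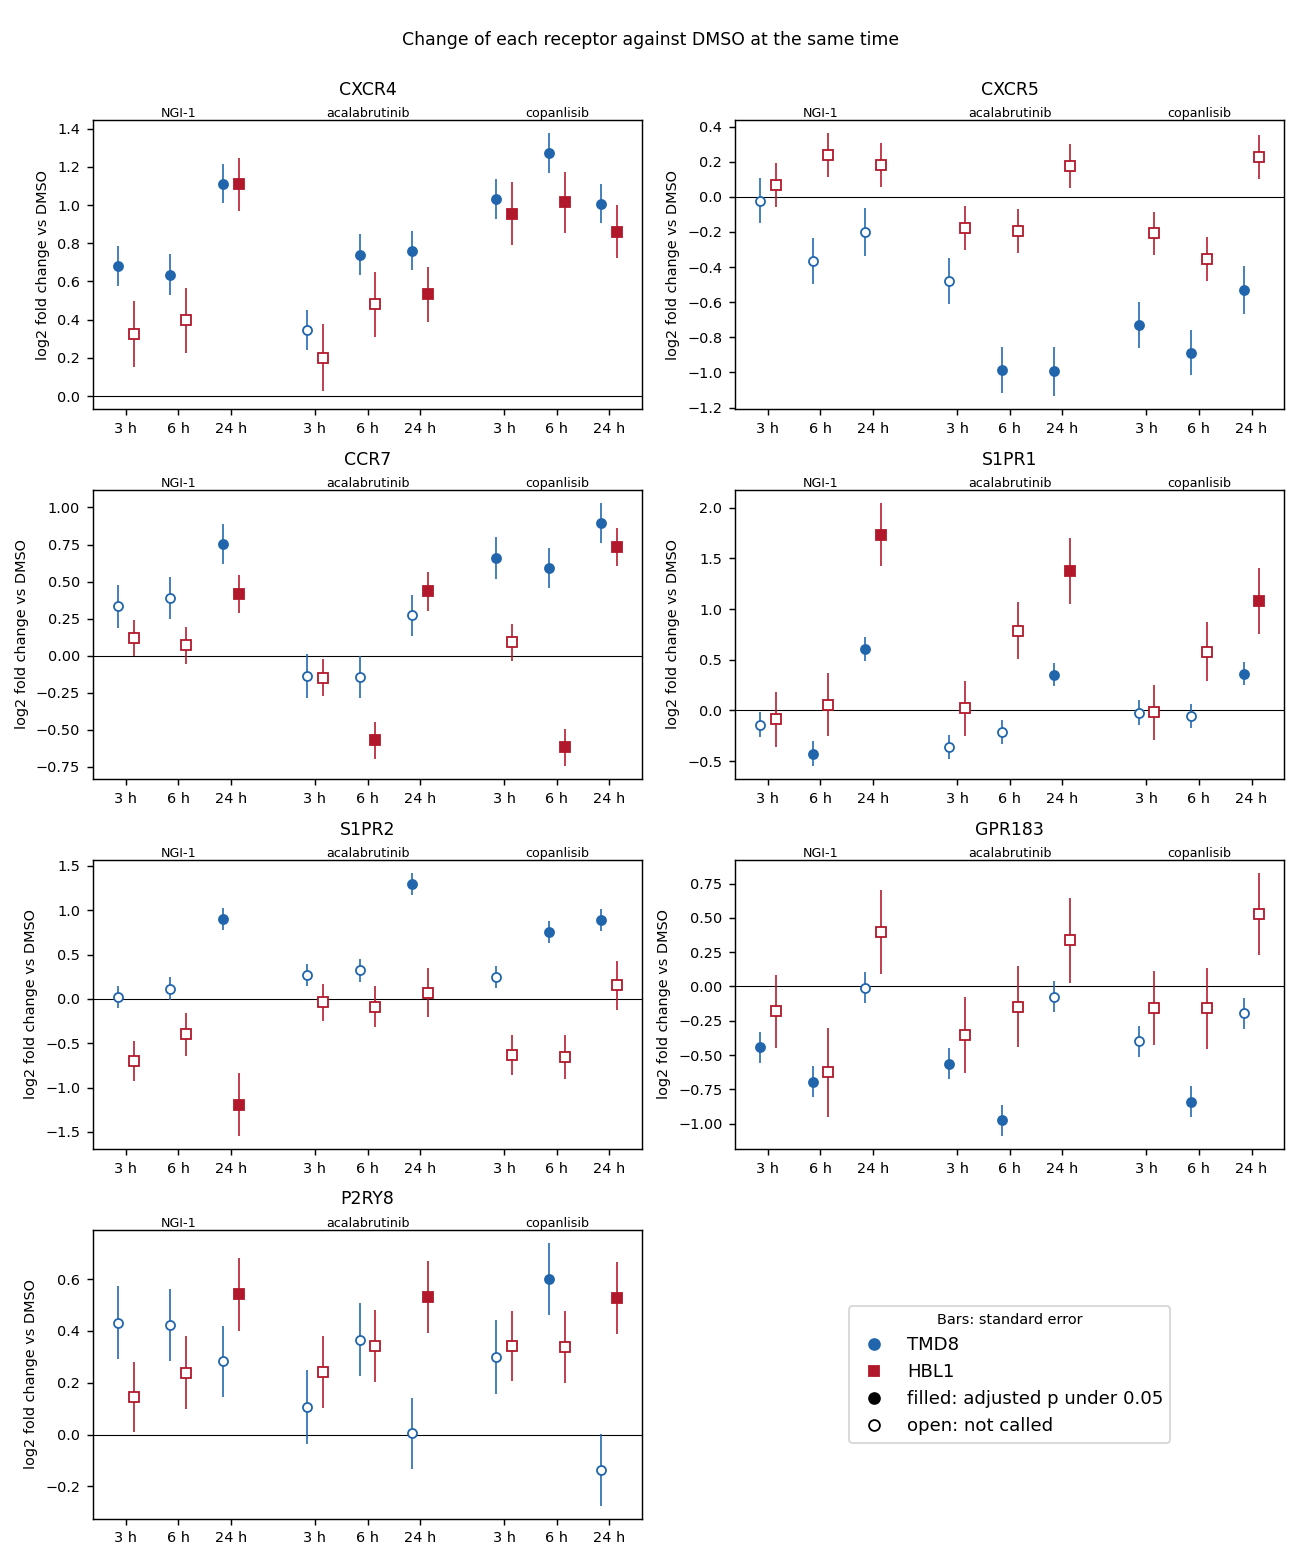
Log2 change of each receptor against DMSO of the same line and time, with its standard error as a bar, for the 3 compounds at 3, 6 and 24 h; filled points passed an adjusted p of 0.05. CXCR4 lies above 0 in all 18 comparisons, and CXCR5 and GPR183 have filled points below 0 in TMD8 and no filled points in HBL1.

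S1PR1 (gene identifier 1901), the exit receptor, was called late. In TMD8 its DMSO libraries at 24 h held 51.1 and 50.1 CPM, against 78.9 and 74.8 CPM with NGI-1, 68.98 and 60.3 CPM with acalabrutinib and 65.6 and 64.5 CPM with copanlisib. All 6 treated libraries were higher. S1PR1 rose by 0.60 ± 0.12 (adjusted p = 6.81e-05), 0.35 ± 0.12 (0.0175) and 0.36 ± 0.12 (0.0145) on the log2 scale. At 6 h NGI-1 had lowered it, from 51.02 and 55.8 CPM to 38.3 and 41.3 CPM (-0.42 ± 0.12, 0.0311).

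In HBL1, S1PR1 rose at 24 h from a low count. The DMSO libraries held 10 and 16 reads, those with NGI-1 43 and 43, those with acalabrutinib 27 and 41 and those with copanlisib 27 and 30. Every treated library held more reads than vehicle, and the log2 changes were 1.73 ± 0.31 (adjusted p = 1.75e-05), 1.38 ± 0.32 (0.000857) and 1.08 ± 0.33 (0.00719). Without replicate 1 of HBL1 DMSO at 24 h, the library with 10 reads, S1PR1 gave 1.30 (adjusted p = 0.01) with NGI-1, 0.94 (0.0929) with acalabrutinib and 0.64 (0.267) with copanlisib, whose value without copanlisib replicate 2 was 0.91 (0.0847). In TMD8, the NGI-1 call for S1PR1 at 24 h held without any 1 library (adjusted p at most 0.00283), whereas the NGI-1 call at 6 h was lost with each of its 4 libraries left out (adjusted p up to 0.246), and at 24 h acalabrutinib lost it in 3 of 4 and copanlisib in 4 of 4.

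S1PR2 (gene identifier 9294), a confining receptor, rose in TMD8 at 24 h with all 3 compounds. DMSO libraries held 20.3 and 21.6 CPM, NGI-1 41.3 and 37.0 CPM, acalabrutinib 53.7 and 49.2 CPM and copanlisib 36.6 and 41.4 CPM. The acalabrutinib libraries were the highest, and all treated libraries were above vehicle. The changes were 0.90 ± 0.13 (adjusted p = 2.51e-07), 1.30 ± 0.12 (2.23e-11) and 0.89 ± 0.13 (2.65e-07). With copanlisib S1PR2 was already higher at 6 h, at 40.1 and 35.1 CPM against 22.1 and 22.5 CPM (0.75 ± 0.13, 1.91e-05).

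HBL1 held few S1PR2 reads, and no comparison there was called higher. At 24 h the DMSO libraries held 27 and 15 reads, NGI-1 10 and 8, acalabrutinib 18 and 26 and copanlisib 23 and 25. Only with NGI-1 did both libraries lie outside the vehicle libraries, below them, with a log2 change of -1.19 ± 0.35 (adjusted p = 0.0149). Without DMSO replicate 1 that change in S1PR2 was -0.85 (adjusted p = 0.319), without NGI-1 replicate 1 it was -1.29 (0.0667) and without NGI-1 replicate 2 it was -1.11 (0.105).

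GPR183 (gene identifier 1880), the oxysterol receptor, fell early in TMD8. At 6 h its DMSO libraries held 186 and 223 CPM, against 122 and 131 CPM with NGI-1, 98.6 and 109 CPM with acalabrutinib and 108 and 120 CPM with copanlisib. Vehicle was above every treated library, by 0.69 ± 0.11 (adjusted p = 3.82e-05), 0.97 ± 0.11 (4.11e-08) and 0.84 ± 0.11 (4.09e-07) on the log2 scale. At 3 h DMSO held 190 and 180 CPM and the treated libraries 123 to 154 CPM. NGI-1 (-0.44 ± 0.11, 0.0434) and acalabrutinib (-0.56 ± 0.11, 0.00692) passed at that time. Copanlisib (-0.40 ± 0.11, 0.0547) did not pass in edgeR's main fit, but it passed in DESeq2 (-0.40, 0.0321) and in edgeR with a stricter filter (-0.42, 0.0314). At 24 h, with 142 and 138 CPM in DMSO and 115 to 145 CPM in the treated libraries, GPR183 gave -0.01, -0.08 and -0.19, and none passed. The 3 h call with NGI-1 was lost with each of its 4 libraries left out (adjusted p up to 0.428), and that with acalabrutinib in 3 of 4 (up to 0.237). In HBL1, 0 of 9 GPR183 comparisons passed in edgeR, 0 were at an unadjusted p under 0.05 and DESeq2 called 0, with changes from -0.63 to 0.53 on 17 to 60 reads, and its DMSO replicates at 3 h held 25 and 60 reads.

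P2RY8 (gene identifier 286530), the other G alpha 13-coupled receptor, was called in 4 of 18 comparisons in edgeR, each time higher. In HBL1 at 24 h the DMSO libraries held 114 and 105 CPM, against 170 and 149 CPM with NGI-1, 173 and 145 CPM with acalabrutinib and 166 and 150 CPM with copanlisib. The 3 compounds gave overlapping levels, and all 6 treated libraries were above vehicle. P2RY8 rose by 0.54 ± 0.14 (adjusted p = 0.00571), 0.53 ± 0.14 (0.00712) and 0.53 ± 0.14 (0.00431). In TMD8 it rose with copanlisib at 6 h, from 101 and 136 CPM to 166 and 193 CPM (0.60 ± 0.14, 0.00282). P2RY8 with NGI-1 at that time held 142 and 176 CPM, above both vehicle libraries, and its change of 0.42 did not pass in edgeR (adjusted p = 0.0901) and passed in DESeq2 (0.41, 0.0446). Without DMSO replicate 1 the TMD8 value of P2RY8 was 0.40 (adjusted p = 0.125), and without copanlisib replicate 2 it was 0.49 (0.075). In HBL1, leaving out the first replicate of a compound gave 0.44 (0.0876) with NGI-1, 0.40 (0.127) with acalabrutinib and 0.45 (0.0584) with copanlisib, and leaving out DMSO replicate 2 gave 0.48 with NGI-1 (0.0627) and 0.47 with acalabrutinib (0.0697).

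Whether the lines responded differently was tested as the compound's change in TMD8 minus that in HBL1. Of 63 such differences, 4 were called higher in TMD8 and 4 lower. They fell at 6 h with copanlisib (2 of 7 receptors, 0.562% of all genes) and at 24 h with NGI-1 (2, 2.57%), acalabrutinib (2, 4.19%) and copanlisib (2, 4.22%). None of the 7 was called at 3 h with NGI-1 (0.0144%), acalabrutinib (0%) or copanlisib (0.0576%), or at 6 h with NGI-1 (0.0216%) or acalabrutinib (0.151%). Of the 35 differences in those 5 comparisons, 9 were at an unadjusted p under 0.05 in edgeR, and DESeq2 called 1.

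S1PR2 gave the largest difference, 2.09 ± 0.37 with NGI-1 at 24 h (adjusted p = 0.000139), where it rose in TMD8 and fell in HBL1. Its difference was 1.23 ± 0.30 (0.00997) with acalabrutinib at 24 h and 1.41 ± 0.28 (0.00329) with copanlisib at 6 h. CXCR5 differed at 24 h, by -1.17 ± 0.19 (0.000145) with acalabrutinib and -0.76 ± 0.19 (0.0133) with copanlisib, and CCR7 differed at 6 h with copanlisib, by 1.21 ± 0.19 (0.000268). S1PR1 with NGI-1 at 24 h gave -1.13 ± 0.33 (0.0409), a rise in both lines that was larger in HBL1, and P2RY8 with copanlisib at 24 h gave -0.66 ± 0.20 (0.0494). For CXCR4 no difference passed at 24 h: it was 0.00 with NGI-1 (95% interval -0.34 to 0.35), 0.23 with acalabrutinib (-0.13 to 0.58) and 0.15 with copanlisib (-0.20 to 0.50). Without replicate 1 of HBL1 DMSO at 24 h, S1PR2 gave 1.75 with NGI-1 (adjusted p = 0.0592) and 0.89 with acalabrutinib (0.359), and S1PR1 gave -0.69 with NGI-1 (0.484). For CXCR5 with copanlisib, leaving out TMD8 copanlisib replicate 2, TMD8 DMSO replicate 1 or HBL1 DMSO replicate 2 gave -0.57 (0.101), -0.67 (0.0758) or -0.72 (0.0622), and for S1PR2 leaving out replicate 1 of HBL1 DMSO or copanlisib at 6 h gave 1.31 (0.072) or 1.32 (0.0508), and of HBL1 acalabrutinib at 24 h 1.07 (0.0777). The S1PR1 and P2RY8 differences were lost with 7 and 8 of their 8 libraries left out in turn.

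**Figure D3:**
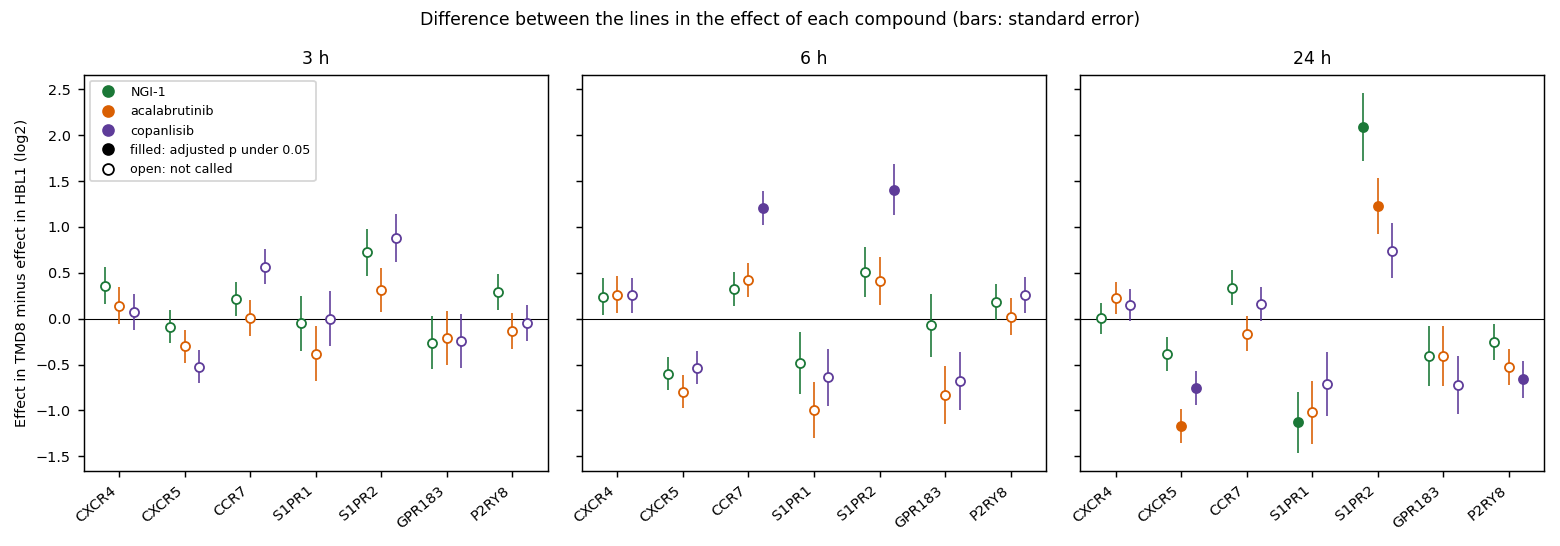
Difference of each compound's log2 change between the lines, TMD8 minus HBL1, for the 7 receptors at 3, 6 and 24 h, with standard errors as bars; filled points passed an adjusted p of 0.05. The filled points are S1PR2 and CCR7 above 0 and CXCR5, S1PR1 and P2RY8 below 0, and CXCR4 stays near 0 at 24 h.

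The change of each response from 3 to 24 h was tested in the same way. In TMD8, 3 of 7 receptors were called with NGI-1 (12% of all genes), 4 with acalabrutinib (14.4%) and 1 with copanlisib (10.9%). In HBL1 the counts were 2 with NGI-1 (4.8%), 1 with acalabrutinib (3.96%) and 1 with copanlisib (9.31%). In all 12 the difference from vehicle was higher at 24 h than at 3 h, which is not a statement about the level itself. S1PR1 gained 0.74 ± 0.17 with NGI-1 (adjusted p = 0.00189) and 0.71 ± 0.17 with acalabrutinib (0.00245) in TMD8, and 1.82 ± 0.41 (0.00358) and 1.36 ± 0.42 (0.0497) in HBL1. S1PR2 gained 0.88 ± 0.18 (0.000575), 1.02 ± 0.18 (4.39e-05) and 0.64 ± 0.18 (0.0128) with NGI-1, acalabrutinib and copanlisib in TMD8. CXCR4 gained 0.43 ± 0.15 with NGI-1 (0.0453) and 0.42 ± 0.15 with acalabrutinib (0.0482) in TMD8, and 0.78 ± 0.22 with NGI-1 in HBL1 (0.0289). GPR183 with acalabrutinib in TMD8 gained 0.49 ± 0.16 (0.0332), after its fall at 3 and 6 h, and CCR7 with copanlisib in HBL1 gained 0.64 ± 0.18 (0.0173). Without replicate 1 of HBL1 DMSO at 24 h, S1PR1 in HBL1 gave 1.38 (adjusted p = 0.0907) with NGI-1 and 0.92 (0.382) with acalabrutinib, whose call was lost with 6 of its 8 libraries left out in turn, and CXCR4 in TMD8 lost both calls with each of its 8 libraries left out in turn. Of the 8 libraries behind each other value, leaving out 4 ended the call for CXCR4 in HBL1 (0.61 to 0.66), 6 that for GPR183 (0.41 to 0.52), 3 that for S1PR2 with copanlisib (0.50 to 0.60) and 4 that for CCR7 (0.49 to 0.65).

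Vehicle itself moved between 3 and 24 h. In TMD8, 5 of 7 receptors were called in DMSO (32.8% of all genes), with CXCR4 (0.41 ± 0.11, adjusted p = 0.00237) and P2RY8 (0.46 ± 0.14, 0.0109) higher at 24 h and CXCR5 (-0.99 ± 0.13, 8.2e-07), S1PR2 (-0.53 ± 0.13, 0.00119) and GPR183 (-0.41 ± 0.11, 0.00424) lower. In HBL1, 6 were called (39.7%), and only CXCR4 was higher (0.88 ± 0.17, 3.18e-05). CCR7 fell most there (-1.50 ± 0.13, 2.5e-11), followed by S1PR2 (-1.02 ± 0.25, 0.000535), S1PR1 (-0.97 ± 0.33, 0.0134), CXCR5 (-0.81 ± 0.13, 4.06e-06) and P2RY8 (-0.66 ± 0.14, 0.000342). The late rises of S1PR2 in TMD8 and of S1PR1, CCR7 and P2RY8 in HBL1 were therefore measured against a vehicle that had itself dropped. Without replicate 1 of HBL1 DMSO at 24 h the drop of S1PR1 was -0.54 (adjusted p = 0.309). Leaving out 1 of the TMD8 DMSO libraries at 3 h gave 0.35 (0.0543) for CXCR4, -0.39 (0.0519) for S1PR2, -0.37 (0.0567) for GPR183 and 0.30 (0.22) for P2RY8.

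The compounds were set against each other at 24 h, without DMSO. NGI-1 differed from acalabrutinib for 1 of 7 receptors in TMD8 (1.3% of all genes) and 2 in HBL1 (3.25%). NGI-1 differed from copanlisib for 0 in TMD8 (1.35%) and 1 in HBL1 (4.93%), and copanlisib differed from acalabrutinib for 1 in TMD8 (0.461%) and 0 in HBL1 (0.101%). In the 2 comparisons with a count of 0, edgeR gave 3 and 2 receptors at an unadjusted p under 0.05, and DESeq2 called 0 in each. CXCR5 in TMD8 was higher with NGI-1 than with acalabrutinib by 0.79 ± 0.14 (adjusted p = 0.00101), and CXCR4 in HBL1 was higher with NGI-1 than with acalabrutinib by 0.58 ± 0.13 (0.00558). In TMD8 the same contrast gave 0.35 for CXCR4 (0.0708) and 0.48 for CCR7 (0.0716), which edgeR's main fit did not call. DESeq2 called both (0.355, 0.0373, and 0.485, 0.0237). S1PR2 in HBL1 was lower with NGI-1 than with acalabrutinib (-1.26 ± 0.35, 0.0343) or copanlisib (-1.34 ± 0.35, 0.011), again on 8 and 10 reads. CCR7 in TMD8 was higher with copanlisib than with acalabrutinib by 0.62 ± 0.13 (0.0157), and without acalabrutinib replicate 2 by 0.41 (0.409). Without that library CXCR5 gave 0.66 (0.0917), and CXCR4 in HBL1 gave 0.46 (0.163) without acalabrutinib replicate 1 and 0.45 (0.158) without NGI-1 replicate 2. S1PR2 lost its call against acalabrutinib with each of the 4 libraries left out (-1.42 to -1.06, adjusted p = 0.0694 to 0.335) and in DESeq2 (-1.28, 0.053), and its call against copanlisib in 3 of 4 omissions (-1.44 to -1.19, 0.0957 to 0.154). For CXCR4 in TMD8, NGI-1 and copanlisib differed by 0.11, with a 95% interval of -0.10 to 0.31.

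As a description, each receptor's level was compared over 48 libraries with the other tested genes that had a mean log2 CPM of at least 1. The mean of the 8 libraries of the same line and time was first taken off. CXCR4 was most like ING4 (Pearson r = 0.87), NBR1 (0.857) and HBP1 (0.855), and CXCR5 most like CD83 (0.902), a B cell activation marker, NFKBID (0.849) and ZFP36L1 (0.829). CCR7 was most like BCL2 (0.738), PRDM2 (0.724) and ZNF512 (0.716), and S1PR1 most like FAM116B (0.754), CLMN (0.739) and SLC12A7 (0.703). For S1PR2 the nearest were TOR3A (0.762), PHACTR1 (0.756) and ST6GAL1 (0.724), for P2RY8 MYST4 (0.796), DCLRE1C (0.779) and ERBB2 (0.752). GPR183 had weaker likenesses, led by TANK (0.619), LRMP (0.546) and TDRD7 (0.541). Among the receptors themselves, CXCR4 and P2RY8 went together in both lines (r = 0.652 in TMD8 and 0.754 in HBL1, 24 libraries each). CXCR4 and S1PR2 were alike in TMD8 (0.713) and opposed in HBL1 (-0.557), and CXCR4 and CXCR5 were opposed in TMD8 (-0.636). In HBL1, S1PR1, S1PR2 and GPR183 held 10 to 43, 8 to 49 and 17 to 60 reads per library, so counting noise weighs on their r. Offsets between replicate numbers were not taken off and also enter r. The points share compounds, vehicle libraries and library scaling, so no p is given.

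Other genes of the same pathway were read from 6 lists, as counts called at 24 h. Of all genes tested, with NGI-1, acalabrutinib and copanlisib in that order, 15.6%, 15.3% and 15.6% were higher and 14.8%, 15.5% and 16% lower in TMD8, and 7.87%, 7.53% and 12.5% were higher and 11.4%, 11.4% and 17.7% lower in HBL1. Among 22 other chemoattractant receptors, 13 were tested, and 3, 3 and 2 were higher in TMD8 with NGI-1, acalabrutinib and copanlisib and 0, 1 and 1 lower, with 1, 0 and 2 higher and 1, 1 and 1 lower in HBL1. CNR2, a cannabinoid receptor of B cells, rose with NGI-1 in both lines, by 1.38 ± 0.31 (adjusted p = 0.000324) in TMD8 and 0.85 ± 0.13 (2.43e-06) in HBL1. PTGER4, a prostaglandin E2 receptor, fell with acalabrutinib (-0.81 in TMD8 and -2.86 in HBL1) and copanlisib (-0.45 and -2.97). Of 16 ligand and ligand metabolism genes, 8 were tested, with 2, 1 and 1 higher and 3, 3 and 2 lower in TMD8, and 1, 2 and 2 higher and 1, 1 and 1 lower in HBL1. SPHK1, which makes the S1PR ligand sphingosine 1-phosphate, fell with all 3 compounds in both lines, by 1.02 to 1.53 on the log2 scale in TMD8 and 1.16 to 1.78 in HBL1.

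The signal relay and the genes that switch it off were read next. Of 18 G protein relay genes, all tested, 3, 2 and 2 were higher and 2, 3 and 4 lower in TMD8, and 1, 0 and 1 higher and 2, 3 and 4 lower in HBL1, with medians between -0.12 and -0.04. GNAI3, an inhibitory G alpha subunit, fell in all 6 comparisons, by 0.25 to 0.40. GNB2, a G beta subunit, fell with acalabrutinib (-0.26 in TMD8 and -0.30 in HBL1). Of 13 desensitisers, the RGS proteins, receptor kinases and arrestins that end the signal, 12 were tested. In TMD8, 6, 7 and 5 of them were lower and 1, 2 and 0 higher, with medians of -0.34, -0.42 and -0.38 where all genes had 0.01, 0.007 and 0.002. In HBL1, 4, 1 and 2 were lower and 0, 3 and 2 higher, with medians of -0.29, -0.004 and 0.03 where all genes had 0, -0.01 and -0.02. RGS1 fell with NGI-1 in both lines (-1.81 and -1.53), but with acalabrutinib it fell in TMD8 (-2.01) and rose in HBL1 (0.88). RGS2 fell with NGI-1 (-1.03 and -0.75) and copanlisib (-0.64 and -0.45), GRK6 fell with acalabrutinib (-0.48 and -0.70) and copanlisib (-0.54 and -0.81), and RGS19 rose with acalabrutinib (0.43 and 0.77).

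Adhesion genes and regulators were mixed. Of 13 adhesion genes, all tested, 4, 4 and 3 were higher and 2, 5 and 3 lower in TMD8, and 4, 1 and 3 higher and 0, 0 and 0 lower in HBL1. SELPLG, a selectin ligand, rose with NGI-1 (0.87 and 0.75), and ICAM3 rose with copanlisib (0.46 and 0.30). Of 11 regulators, all tested, 3, 3 and 3 were higher and 2, 3 and 1 lower in TMD8, and 2, 3 and 4 higher and 2, 2 and 2 lower in HBL1. FOXO1 rose with NGI-1 (0.73 ± 0.14, adjusted p = 0.000135, and 0.38 ± 0.13, 0.0369) and FOXO3 with copanlisib (0.83 and 0.58). IRF4 fell with NGI-1 (-0.67 and -0.47) and acalabrutinib (-1.33 and -0.69), NFKB2 fell with acalabrutinib (-1.17 and -0.56), and PRDM1 rose with copanlisib (0.59 and 0.79). KLF2 did not pass in TMD8 at 24 h, at 0.37 (adjusted p = 0.167), 0.49 (0.0575) and 0.43 (0.101) with NGI-1, acalabrutinib and copanlisib, nor in HBL1, at 0.11 (0.85), 0.35 (0.449) and 0.22 (0.614). CD69, whose protein removes S1PR1 from the surface, passed in none of the 6 comparisons in edgeR.

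**Figure D4:**
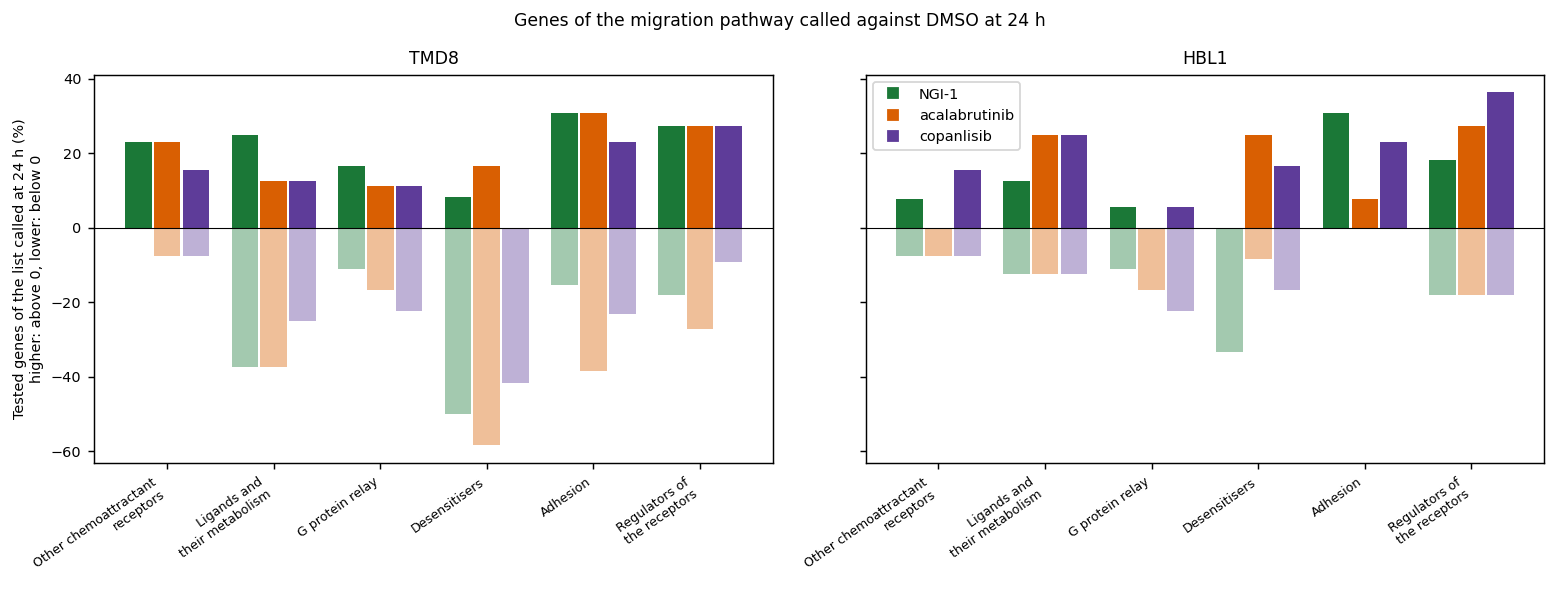
Percent of the tested genes of each of the 6 pathway lists called higher (above 0) and lower (below 0, paler) than DMSO at 24 h, by compound and line. The desensitisers in TMD8 have the most genes called lower, 6, 7 and 5 of 12 tested.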

How the data were processed

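RNA was extracted with a column kit and libraries were made by standard Illumina methods, per the labels' protocols. The authors deposited raw read counts per gene in 1 table, made with HTSeq on hg19, per the submitters' processing notes; no aligner, version or strand setting is named there (not given in the sources used here). Library totals, an entry of the table, were left out, and the 3449 genes with a symbol but no identifier, which hold 0.815% of reads, were kept.

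Counts were tested with edgeR 4.0.16 (limma 3.58.1, R 4.3.3): TMM scaling, filterByExpr by group, 1 mean for each of 24 groups over all 48 libraries and a robust quasi-likelihood fit (24 residual degrees of freedom), with Benjamini-Hochberg adjustment within each of 44 comparisons and a threshold of 0.05. CPM are reads divided by the library's tested reads times its TMM factor, times 1e6. Standard errors and 95% intervals come from the fitted means and quasi-likelihood spread. Replicate counts of a group differed by 2.63 to 9.04 times the sampling noise (chi-square per degree of freedom), so the 2 libraries of a group were not copies of each other. The common coefficient of variation was 7.34%. The script was tested on simulated data.

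Alternatives were RLE size factors, no filter, a stricter filter (2 or more libraries reaching a CPM of 1, and an average log2 CPM reaching 1), DESeq2 1.42.0, a fit of each line alone, a replicate block, and leaving out each library, which keeps the tested genes and the dispersion trend and assumes that the lone library of a group varies like the others. The 8 receptors, the pathway lists and the tests were chosen with earlier results of these data known. Beyond the receptors, genes named are the 2 largest changes per list and compound called in both lines at 24 h in 1 direction, except 1 gene that is not reported here, and for each receptor the 3 genes most like it with a mean log2 CPM (prior count of 2) of at least 1. Other genes and values (BCL9L, RGS1 with acalabrutinib, KLF2, CD69) were named after their values were seen. Exon overlaps come from GENCODE v29 on GRCh38 and promoters from RefSeq on GRCh38.p14, and neither is the build of the counts. Receptor proteins were not used here.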

Additional observations from a re-analysis of the deposited data

Results flagged for a closer look

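The following 20 results were singled out because a compound's effect differed between groups, tested as a difference of log2 changes in edgeR with adjustment over all genes (adjusted p in parentheses). Between the lines, TMD8 minus HBL1, NGI-1 at 24 h gave -1.13 for S1PR1 (0.0409) and 2.09 for S1PR2 (0.000139). Acalabrutinib at 24 h gave -1.17 for CXCR5 (0.000145) and 1.23 for S1PR2 (0.00997). Copanlisib gave 1.21 for CCR7 (0.000268) and 1.41 for S1PR2 (0.00329) at 6 h, and -0.76 for CXCR5 (0.0133) and -0.66 for P2RY8 (0.0494) at 24 h. In HBL1, S1PR1 and S1PR2 rest on 10 to 43 and 8 to 49 reads per library.

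Between times, 24 h minus 3 h, in TMD8, NGI-1 gave 0.43 for CXCR4 (0.0453), 0.74 for S1PR1 (0.00189) and 0.88 for S1PR2 (0.000575). Acalabrutinib in TMD8 gave 0.42 for CXCR4 (0.0482), 0.71 for S1PR1 (0.00245), 1.02 for S1PR2 (4.39e-05) and 0.49 for GPR183 (0.0332), and copanlisib gave 0.64 for S1PR2 (0.0128). In HBL1, NGI-1 gave 0.78 for CXCR4 (0.0289) and 1.82 for S1PR1 (0.00358), acalabrutinib gave 1.36 for S1PR1 (0.0497) and copanlisib gave 0.64 for CCR7 (0.0173). Between 3 and 24 h the level in DMSO itself was called different for CXCR4, S1PR2 and GPR183 in TMD8 and for CXCR4, S1PR1 and CCR7 in HBL1. Groups of 2 libraries were too small to look for a library far from the rest.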

How the results depend on the processing

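Of 104 called receptor results, 57 held under every alternative run, and 40 of 204 uncalled ones were called under some alternative; the other 164 were called under none, and 64 of these changed sign in some setting, with log2 changes from -0.997 to 0.881. Counts of called receptors that moved by over 1.5 times were those of line differences (8, against 14 with no filter on low counts), and of differences between compounds (5, against 9 with no filter and 8 with the replicate block). Leaving out each library in turn gave 4 to 9 line differences (4 without HBL1 DMSO 24 h replicate 1, 5 without TMD8 DMSO 24 h replicate 1), 7 to 14 time differences (12 with all libraries, 7 without TMD8 DMSO 24 h replicate 1) and 3 to 6 differences between compounds (3 without HBL1 acalabrutinib 24 h replicate 1, TMD8 acalabrutinib 24 h replicate 2 or HBL1 NGI-1 24 h replicate 2). Among the 144 results called in at least 1 setting, direction reversed for GPR183 in HBL1 alone, without HBL1 DMSO 3 h replicate 2: over the libraries left out, its acalabrutinib effect at 24 h minus 3 h ran from -0.0706 to 1.23, its copanlisib effect from -0.0577 to 1.24 and its DMSO change from -1.19 to 0.115. DESeq2 kept the call or its absence in 131 of 144 results, RLE size factors in 143 of 144 and the stricter filter in 140 of 144. A fit of each line alone ended the calls of CCR7 with NGI-1 in HBL1 at 24 h (adjusted p = 0.0504), of the time differences in HBL1 of CXCR4 with NGI-1 (0.0817) and S1PR1 with acalabrutinib (0.114), and of CXCR5 in TMD8 and CXCR4 and S1PR2 in HBL1 between NGI-1 and acalabrutinib (0.0605, 0.0566 and 0.0544); no filter also ended the last (0.0515) and that of S1PR1 (0.0544), and with RLE size factors the time difference of CXCR4 with acalabrutinib in TMD8 had 0.0511. The replicate numbers are not said to mark a shared culture or day. Over all genes tested, same-numbered libraries deviated together weakly (36 pairs, r from 0.0467 to 0.302, median 0.129). For single receptors the offset could be steady. CXCR5 was higher in replicate 1 than in replicate 2 in every TMD8 group (290 and 232 CPM in DMSO at 6 h). CXCR4 was lower in replicate 1 in every HBL1 group. CCR7 was higher in replicate 1 in every HBL1 group (114 and 90.8 CPM in DMSO at 24 h). With 1 library of a group left out, such an offset also enters the change. The main fit counts such an offset as spread between libraries. With 2 numbers per group the block was used only as an alternative. Under it 16, 17 and 23 receptors were called against DMSO with NGI-1, acalabrutinib and copanlisib in place of 14, 13 and 21. CXCR4 with acalabrutinib at 3 h in TMD8 was among them (0.34, adjusted p = 0.00856), and 17 time differences were called in place of 12. In HBL1 the depth leaves S1PR1, S1PR2 and GPR183 with 8 to 60 reads per library, and CCR6 too low to test in both lines; the cause of the changes above was not tested.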
